A study of Mus musculus with 7 samples.

Results

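Conjugation enzymes attach a water-soluble group to drugs, hormones, bilirubin and products of lipid oxidation so that the liver can export them into bile or blood. Their transcripts were examined in mouse liver 8 h after carbon tetrachloride (CCl4), a solvent that hepatocytes convert into reactive radicals, with and without p53 in hepatocytes. The genes came from a list of 40 symbols covering glucuronidation, sulfation and the other conjugation reactions. Of these, 39 had a row among the 14851 genes of the table, and Sult3a1 was not analysed here. They were grouped into 8 families by the reaction they carry out, and 38 averaged 10 or more normalised counts over the 7 livers, the limit below which genes were not tested. The limit left out Nat1.

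The livers came from 4 Albumin-Cre; p53FL/FL mice (FL) and 3 Albumin-Cre; p53 WT mice (WT). In both genotypes Cre recombinase was expressed from the Albumin promoter, which is active mainly in hepatocytes, although bile duct cells, which share a precursor with them, can recombine as well. All mice were male, on a C57BL/6J background and about 70 days old, all had received 1 intraperitoneal dose of CCl4 (20% in corn oil, at 1 mL/kg), and some mice of the study also carried a Rosa26 reporter of Cre activity. The source names in the labels begin with 1 code in all WT livers and with other codes in all FL livers, so whatever that code stands for and the genotype cannot be told apart.

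Values are normalised read counts, which the authors scaled with DESeq2 and rounded. The estimated depth was 11.9 to 19.5 M reads on genes per library. Trp53 served as the check of the genotype. The 4 FL livers, in the order of replicates 1 to 4 used throughout, held 131, 130, 217 and 110 normalised counts of it, and WT replicates 1 to 3 held 876, 688 and 831. The genotypes did not overlap, and FL livers averaged 18.4% of the WT level. The 8 hepatocyte markers examined summed to 1451790 to 1844634 normalised counts in FL and 1250811 to 1485741 in WT livers. Most of each sum was Alb, at 1118758 to 1511638 in FL and 956556 to 1200274 in WT livers. All 8 were higher on average in FL livers, with a median log2 difference of 0.306. Of the 8, 1 had an unadjusted p under 0.05 in limma, beside 3.2% of all genes. WT replicate 2 and FL replicate 3 stood apart on the first principal component of all genes, which held 66.7% of the variance, at 82.0 and 29.2 against -25.6 to -19.1 for the other 5 livers. Several results, though not all that moved, are given with and without these 2 livers.

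UDP-glucuronosyltransferases (UGTs) of the endoplasmic reticulum transfer glucuronic acid from UDP-glucuronic acid, and cytosolic sulfotransferases transfer sulfate from PAPS, the activated form of sulfate. Glutathione transferases couple glutathione to electrophiles, epoxide hydrolases open epoxides with water, and smaller families add methyl, acetyl or glycine groups. In liver these enzymes follow the cytochromes P450, which are also the enzymes that activate CCl4.

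The conjugation genes differed little between FL and WT livers beside the spread of the livers. None of the 38 tested genes passed an adjusted p of 0.05 in limma, where 0.0159% of all 12545 genes did (2 genes, of which Trp53 was 1). All 38 had an adjusted p of 0.999. At an unadjusted p under 0.05 there were 3, or 7.89%, beside 3.2% of all genes. Ugt1a9 and Ugt2b35 were lower in FL livers, and the epoxide hydrolase gene Ephx2 was higher. The livers of the 2 genotypes did not overlap for Ugt1a9 and Ugt2b35, 5.26% of the 38, beside 4.76% of all genes. By log2 fold change 20 of the 38 were higher and 18 lower in FL, and the median was 0.033, beside 0.0069 over all genes, of which 51.6% were higher.

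The livers bounded the difference about as closely for these genes as for others. The 95% interval of the fold change lay within 1.5-fold either way for 18 of 38 and within 2-fold for 31, beside 50.1% and 77.7% of all genes. The narrowest belonged to well-expressed enzymes such as Gstt1, whose interval ran from 0.889 to 1.20 of the WT level, and Ugt2b36, from 0.847 to 1.17. The widest belonged to Ugt2b37, from 0.229 to 4.87, and Sult2a8, from 0.502 to 5.27. RNA from whole liver cannot tell fewer cells of a type from less RNA per cell.

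**Figure D1:**
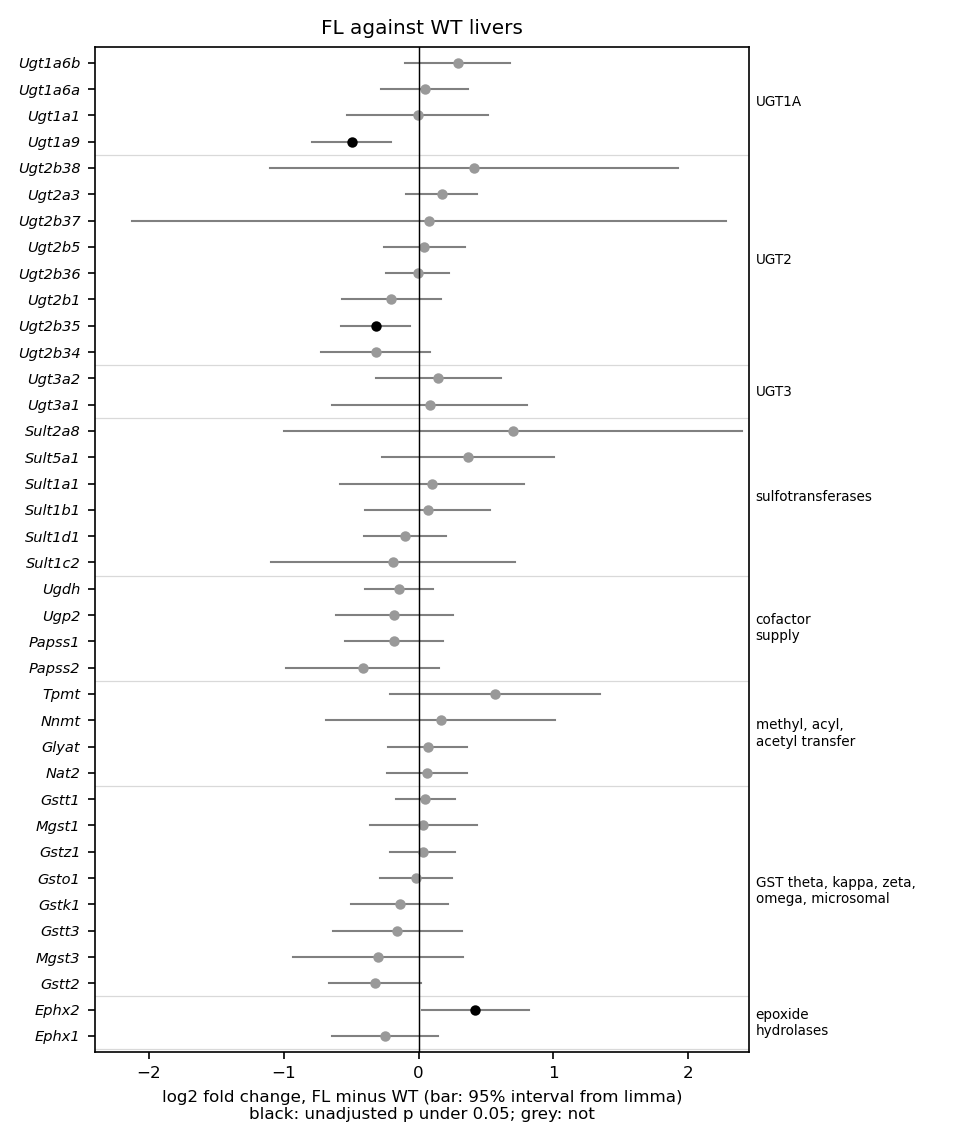
Log2 fold change of each tested conjugation enzyme gene, FL minus WT (x axis), by family (y axis), with the 95% interval from limma as a bar; black points have an unadjusted p under 0.05. Most points sit close to 0, the 3 black points are Ugt1a9 at -0.50, Ugt2b35 at -0.32 and Ephx2 at 0.42, and the bars of Ugt2b37, Sult2a8 and Ugt2b38 are the longest.

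Levels were compared between genes per kilobase of exon that no other annotated gene overlaps. Mgst1, which encodes the microsomal glutathione transferase of the endoplasmic reticulum, had the highest level at 13070 normalised counts per kilobase, and it held 71.2% of the summed level of its family. The next levels were those of both epoxide hydrolases, Ephx2 at 4483 and Ephx1 at 4035, then Nnmt at 2818, Ugt2b5 at 2767 and Sult1a1 at 2391. The lowest were Sult1c2 at 16.2 and Nat1 at 3.47. In glucuronidation Ugt2b5 and Ugt2b36 together led the UGT2 family with 33.8% and 26.1% of its summed level, and Ugt3a2 held 87.3% of the pair of UGT3 genes. Ugt1a1 led the 4 UGT1A genes at 1573 normalised counts per kilobase of its own exon bases, or 645.9 over all its exon bases. Which level applies depends on how reads on shared exons were counted, which is not given. Sult1a1 held 62.5% of the sulfotransferase level, and Sult2a8 was next at 956 normalised counts per kilobase.

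**Figure D2:**
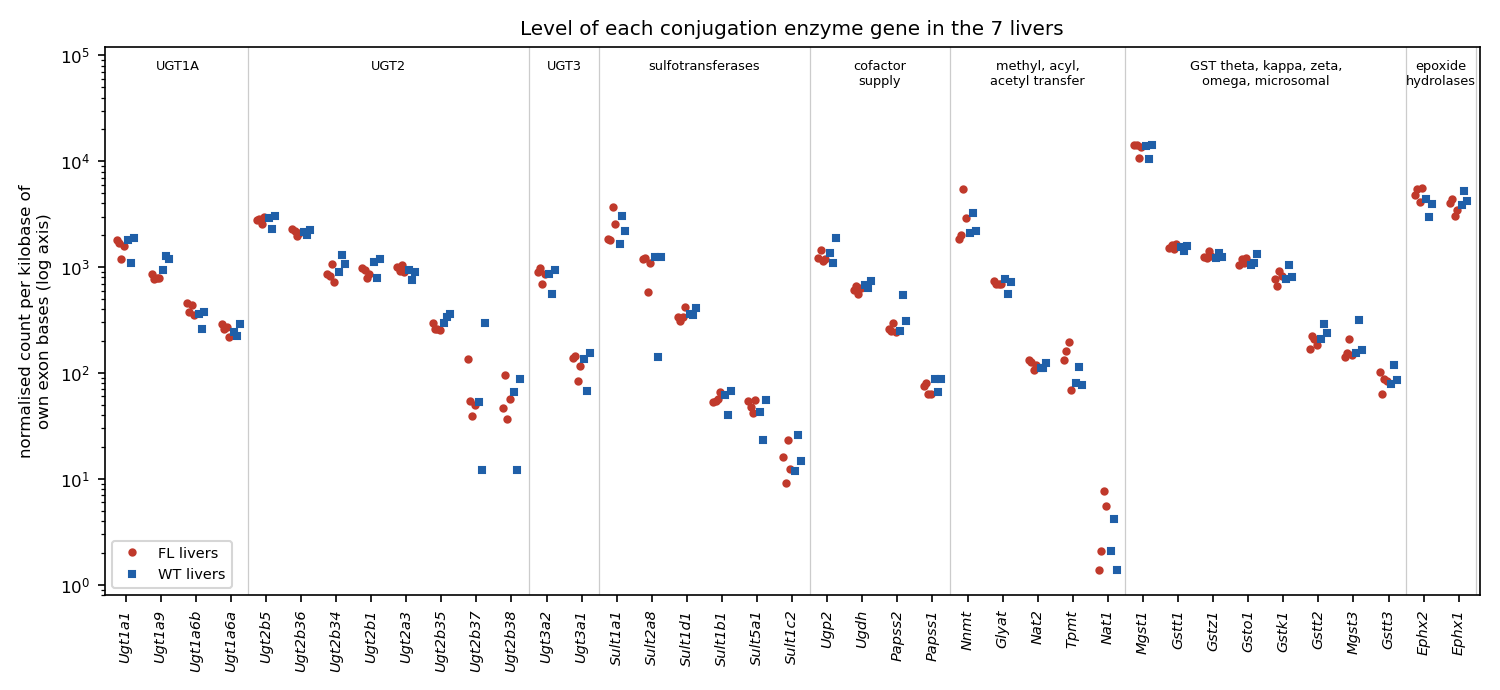
Normalised count per kilobase of own exon bases (y axis, log scale) of the 39 conjugation enzyme genes (x axis, by family and falling level), with 1 red circle for each of 4 FL livers and 1 blue square for each of 3 WT livers. Mgst1 is the highest at a mean of 13070 and Nat1 the lowest at 3.47, and the squares of WT replicate 2 fall far below the others for Sult2a8, Ugt2b37 and Ugt2b38.

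The UGT1A genes are alternative first exons of a single locus that share their last 4 exons. Each first exon encodes the part of the enzyme that binds the substrate, and the shared exons encode the part that binds UDP-glucuronic acid. The 4 transcripts examined shared all 1311 bases after the first exon. Fragments were read from both ends, so only those with at least 1 end on the first exon can tell the transcripts apart. Their junctions are shown because they mark where the distinguishing sequence ends, with the last 24 bases of the first exon in lower case and the first 24 bases of the shared second exon, at chr1:88215044-88215175 of GRCm38, in capitals.

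Ugt1a1: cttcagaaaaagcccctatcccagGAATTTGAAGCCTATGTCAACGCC
Ugt1a6a: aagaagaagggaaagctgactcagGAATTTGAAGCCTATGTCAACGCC
Ugt1a6b: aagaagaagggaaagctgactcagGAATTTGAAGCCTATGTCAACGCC
Ugt1a9: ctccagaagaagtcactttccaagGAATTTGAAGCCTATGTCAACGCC

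The last 24 bases of the first exon were the same in Ugt1a6a and Ugt1a6b. Of all stretches of 36 bases, the read length, 82.9% of those in Ugt1a6b and between 52.7% and 65.9% of those in the other three also occurred in another gene. How the authors' counting assigned such reads is not given in the sources used here for each gene, so a share of these counts may belong to a neighbouring first exon.

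Ugt1a9 (chr1:88070800-88218997, plus strand, first exon 88070800 to 88071678), whose product glucuronidates phenols, had the smallest unadjusted p of all 38 genes. Its normalised count was 752, 679, 687 and 689 in FL and 823, 1117 and 1056 in WT replicates. No FL liver reached the lowest WT liver, and the FL livers lay close together. The means were 702 ± 33.8 (SD, n = 4) in FL and 999 ± 155 (SD, n = 3) in WT, so FL livers held 70.3% of the WT level. The log2 fold change from limma was -0.50 (SE 0.13) with an unadjusted p of 0.00468, rank 39 among all genes, and an adjusted p of 0.999. Among the 35 ways to divide the livers, an exact permutation test (two-sided) gave p = 0.0286, its lowest possible value. Without WT replicate 2 and FL replicate 3 the log2 fold change was -0.40 (SE 0.12, limma, adjusted p = 0.326). In the same direction, 1.98% of all genes had every FL liver below every WT liver.

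The other UGT1A genes overlapped between genotypes. Ugt1a1, the enzyme that conjugates bilirubin, held 1636, 1540, 1079 and 1438 normalised counts in FL and 1640, 991 and 1731 in WT replicates. Its lowest liver in each genotype was FL replicate 3 and WT replicate 2, at 70.2% and 58.8% of the mean of the other livers of that genotype. The genotype means were 1423 ± 243 (SD, n = 4) and 1454 ± 404 (SD, n = 3), with a log2 fold change of -0.0057 (SE 0.23). Ugt1a6a ranged from 472 to 625 normalised counts in FL and from 482 to 625 in WT livers. Ugt1a6b, the near copy of Ugt1a6a, ranged from 330 to 426 in FL and from 243 to 353 in WT, and its log2 fold change was 0.29 (SE 0.17, limma unadjusted p = 0.127) over all livers and 0.077 (SE 0.13) without the 2 that stood apart. Both UGT1A6 enzymes act on small planar phenols. With 2 genes higher and 2 lower, the median log2 fold change of the UGT1A genes was 0.02, and it was -0.095, with 1 higher and 3 lower, without the 2 livers that stood apart.

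HNF1 is a hepatocyte transcription factor known to bind UGT1A promoters, and its core motif is the 6 letters GTTAAT. Searched on both strands of RefSeq promoters (GRCm38.p6, from 250 bases before to 50 after the start), the motif was present in 7.1% of all 32851 promoters and in 7 of the 40 promoters (17.5%) matched to 32 of the 39 genes. A second motif, TTCNNNGAA of the growth hormone effector STAT5, was searched in the same way and was present in 8.3% of all promoters and in 2 of the 40 (5.0%). Only the promoter of Ugt1a6a held both motifs, at separate places. The 7 promoters with the HNF1 motif belonged to Ugt1a1, Ugt1a6a, Ugt1a9, Ugt2a3, Ugt3a1, Sult1a1 and Sult1d1. The 3 UGT1A windows of 40 bases are shown since these genes start at separate places, with the match in capitals, which reads ATTAAC on the printed plus strand. They lie at chr1:88211901-88211940, chr1:88134742-88134781 and chr1:88070671-88070710, and the match starts 41, 50 and 91 bases before the RefSeq start. For Ugt1a6a this promoter, chr1:88134559-88134858, lies upstream of the first exon whose junction is printed above, which begins at 88138378.

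Ugt1a1: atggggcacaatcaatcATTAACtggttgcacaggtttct
Ugt1a6a: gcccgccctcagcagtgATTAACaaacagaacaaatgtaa
Ugt1a9: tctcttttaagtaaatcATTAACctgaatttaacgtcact

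The promoters of Ugt1a1, Ugt1a6a and Ugt1a9 all held the match, and no promoter was matched to Ugt1a6b. It is a match of letters and not a measurement of binding, and its part in these values was not tested.

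The UGT2 enzymes glucuronidate steroids, bile acids and drugs, and their 8 genes lie in a cluster on chromosome 5. Ugt2b35 (chr5:87000860-87013275, plus strand) was the member of this family with the smallest p. It held 993, 866, 867 and 855 normalised counts in FL and 1005, 1133 and 1215 in WT replicates. All FL livers were below all WT livers, although FL replicate 1 came close to WT replicate 1. The means were 895 ± 65.4 (SD, n = 4) and 1118 ± 106 (SD, n = 3), a log2 fold change of -0.32 (SE 0.11, limma unadjusted p = 0.0205, adjusted p = 0.999). The exact permutation test gave p = 0.0571. The log2 fold change was -0.29 (SE 0.11) without the 2 livers that stood apart.

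The most abundant UGT2 transcript did not differ beyond the spread of the livers. Ugt2b5 held 5184, 5318, 4736 and 5532 normalised counts in FL and 5354, 4220 and 5650 in WT replicates, with a log2 fold change of 0.042 (SE 0.13). Its lowest liver was again FL replicate 3 in FL and WT replicate 2 in WT. Of its stretches of 36 bases, 51.7% also occurred in another gene, mainly Ugt2b38. Ugt2b36 was among the steadiest genes of all, between 4018 and 4672 in FL and between 4165 and 4654 in WT, and its log2 fold change was -0.0051 (SE 0.10). Ugt2a3 ranged from 1898 to 2237 in FL and 1607 to 1968 in WT livers.

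Ugt2b34 and Ugt2b1 had lower means in FL livers, 3774 against 4719 and 2285 against 2656 normalised counts, with overlapping livers. Their log2 fold changes were -0.32 (SE 0.18) and -0.20 (SE 0.16), with unadjusted p-values of 0.108 and 0.243 from limma. They departed in opposite ways in the 2 livers that stood apart. Ugt2b34 was highest in both, at 4629 normalised counts in FL replicate 3 and 5668 in WT replicate 2, while Ugt2b1 was lowest in both, at 2023 and 2049. Without these 2 livers the log2 fold changes were -0.28 (SE 0.11) for Ugt2b34 and -0.32 (SE 0.088) for Ugt2b1, with adjusted p-values of 0.46 and 0.296 from limma.

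**Figure D3:**
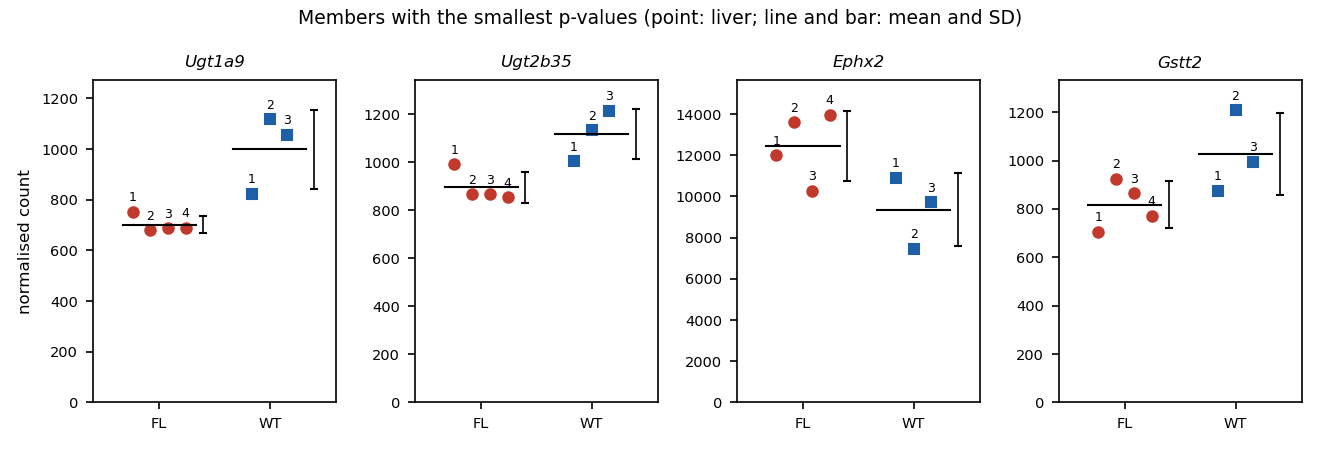
Normalised count (y axis) in each FL and WT liver (points, numbered by replicate) for the 4 conjugation enzyme genes with the smallest p-values, with the mean as a line and the SD as a bar. For Ugt1a9 all FL points (679 to 752) lie below all WT points (823 to 1117), for Ugt2b35 the highest FL point (993) is close below the lowest WT point (1005), and for Ephx2 and Gstt2 the genotypes overlap.

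Ugt2b37 and Ugt2b38 varied more between livers of 1 genotype than between genotypes. Ugt2b37 held 255, 102, 74 and 95 normalised counts in FL and 101, 23 and 558 in WT replicates. Ugt2b38 held 89, 181, 69 and 108 in FL and 125, 23 and 166 in WT replicates. Both were lowest in WT replicate 2, at 6.98% and 15.8% of the mean of the other WT livers, and both were lowest among FL livers in replicate 3. Within a genotype the SD of their log2 values was 1.56 and 1.06, at the 99.2 and 97.1 percentiles of all genes, beside a median of 0.235 for the conjugation genes and 0.26 for all genes. Their log2 fold changes of 0.08 (SE 0.95) and 0.41 (SE 0.65) turned to -0.81 and -0.26 without the 2 livers that stood apart. The mean normalised count of Ugt2b37 over all livers went against its log2 fold change, at 131.5 in FL and 227.3 in WT.

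The promoters of this pair were compared because both genes were lowest in the same liver of each genotype. Their highest livers differed, since among FL livers Ugt2b37 was highest in replicate 1 and Ugt2b38 in replicate 2. In the 286 bases that align without a gap, 271 were identical (94.8%) and 15 differed. Ugt2b5 was also lowest in FL replicate 3 and WT replicate 2, but at 88.6% and 76.7% of the other livers of its genotype. The promoter of Ugt2b5 was not compared, and the part of the promoters in these values was not tested. The stretches lie at chr5:87254753-87255038 for Ugt2b37 and chr5:87424154-87424439 for Ugt2b38, on the minus strand of GRCm38.p6, and capitals mark the bases that differ.

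Ugt2b37: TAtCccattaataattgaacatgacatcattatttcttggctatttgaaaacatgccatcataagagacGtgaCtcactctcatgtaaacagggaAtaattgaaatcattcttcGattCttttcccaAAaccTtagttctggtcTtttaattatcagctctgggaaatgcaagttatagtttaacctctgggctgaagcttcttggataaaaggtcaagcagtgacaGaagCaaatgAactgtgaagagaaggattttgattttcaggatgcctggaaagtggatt
Ugt2b38: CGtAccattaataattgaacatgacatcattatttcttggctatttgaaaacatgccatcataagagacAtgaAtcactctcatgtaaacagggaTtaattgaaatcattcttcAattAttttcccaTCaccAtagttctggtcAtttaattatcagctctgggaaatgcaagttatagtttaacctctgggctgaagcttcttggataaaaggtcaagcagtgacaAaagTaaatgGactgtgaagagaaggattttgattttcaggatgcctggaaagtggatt

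The transcripts are close copies too: 29.7% of the 36-base stretches of Ugt2b37 and 48.7% of those of Ugt2b38 also occurred in another gene, most of them in Ugt2b5. Their counts are therefore uncertain, since Ugt2b5 held many times more reads. By log2 fold change 4 genes of the UGT2 family were higher and 4 lower in FL, with a median of 0.0185 that became -0.27, with 7 of 8 lower, without the 2 livers. The summed normalised count of the family was 93.6% of WT in FL livers.

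The UGT3 enzymes are known to use other UDP-sugars than UDP-glucuronic acid. Ugt3a2 held 2800, 3043, 2154 and 2649 normalised counts in FL and 2691, 1740 and 2891 in WT replicates. Ugt3a1 held 370, 389, 223 and 309 in FL and 363, 179 and 408 in WT replicates. Both were lowest in FL replicate 3 and in WT replicate 2, and the genotypes overlapped. The log2 fold changes were 0.15 (SE 0.20) for Ugt3a2 and 0.081 (SE 0.31) for Ugt3a1, and 0.019 and -0.12 without the 2 livers.

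Among sulfotransferases, Sult2a8, which sulfates bile acids in mouse liver, varied most. It held 3883, 3984, 1920 and 3605 normalised counts in FL and 4056, 468 and 4067 in WT replicates. WT replicate 2 was 8.67-fold below the nearest WT liver, and FL replicate 3 was at 50.2% of the mean of the other FL livers, while the remaining 5 livers lay between 3605 and 4067. Its log2 fold change was 0.70 (SE 0.73) over all livers and -0.088 (SE 0.081) without these 2, with unadjusted p-values of 0.367 and 0.305 from limma. The gene lies at chr7:14410686-14446769 on the minus strand.

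Sult1a1, which sulfates phenols and is the most abundant sulfotransferase transcript here, went the other way. It held 2775, 2739, 5564 and 3843 normalised counts in FL and 2467, 4556 and 3277 in WT replicates, so the same 2 livers were the highest of their genotype. Its log2 fold change was 0.10 (SE 0.30). Sult1c2 was likewise highest in FL replicate 3 at 43 and in WT replicate 2 at 48, against 17 to 30 in the other livers. Sult5a1 was lowest in WT replicate 2 at 104, against 185 to 244 in the other 6 livers. Sult1b1, which acts on thyroid hormones and phenols, ranged from 148 to 185 in FL and 111 to 188 in WT livers. Sult1d1, which sulfates catecholamines, ranged from 759 to 1041 and from 868 to 1007. None of the 6 tested sulfotransferases had an unadjusted p under 0.05, and 4 were higher and 2 lower in FL.

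**Figure D4:**
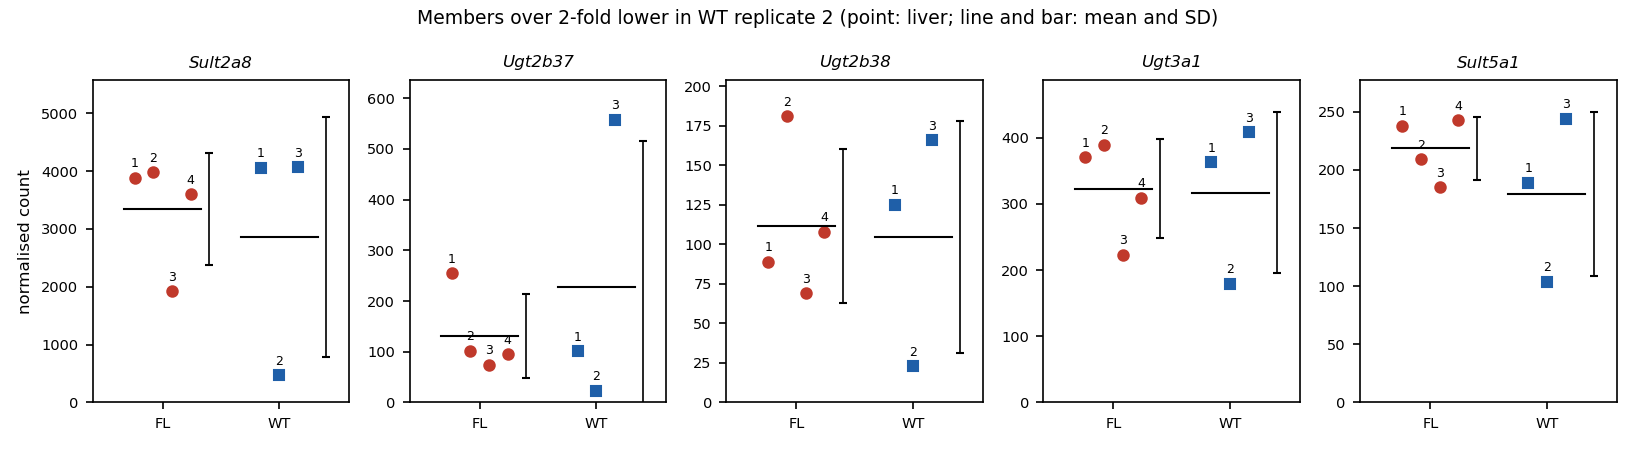
Normalised count (y axis) in each FL and WT liver (points, numbered by replicate) for the 5 genes over 2-fold lower in WT replicate 2 than in the other WT livers, with the mean as a line and the SD as a bar; the bar of WT Ugt2b37 passes 0 and is cut there. WT replicate 2 is the lowest liver in every panel, and FL replicate 3 is the lowest FL liver in every panel.

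All 4 genes that supply the cofactors had lower means in FL livers, and none had an unadjusted p under 0.05. Ugp2 makes UDP-glucose and Ugdh oxidises it to UDP-glucuronic acid, and Papss1 and Papss2 make PAPS. Ugp2 held 3781, 4443, 3494 and 3662 normalised counts in FL and 4163, 3382 and 5815 in WT replicates, a log2 fold change of -0.18 (SE 0.19). Ugdh ranged from 3712 to 4398 in FL and 4147 to 4856 in WT, at a log2 fold change of -0.14 (SE 0.11).

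Papss2 was close to level in 6 livers, between 912 and 1161, and reached 2051 in WT replicate 2. Its log2 fold change of -0.42 (SE 0.25) became -0.09 without that liver. Papss1 ranged from 192 to 248 in FL and 203 to 267 in WT, at a log2 fold change of -0.18 (SE 0.16). The summed normalised count of the 4 genes in FL livers was 86.1% of WT, and their median log2 fold change was -0.18 over all livers and -0.21 without the 2 that stood apart.

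Among the methyl, acyl and acetyl transferases, all 4 tested genes had higher means in FL. Nnmt, which methylates nicotinamide, held 2909, 3166, 8534 and 4585 normalised counts in FL and 3329, 5106 and 3462 in WT replicates. It was highest in FL replicate 3, at 240% of the mean of the other FL livers, and in WT replicate 2. It was the 1 gene of the 38 over 2-fold apart in FL replicate 3, beside 6.87% of all genes. The log2 fold change was 0.16 (SE 0.37) over all livers and 0.037 (SE 0.17) without these 2.

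Tpmt, which methylates thiopurines, had a mean of 516 ± 196 (SD, n = 4) in FL and 330 ± 74.7 (SD, n = 3) in WT. It held 493, 594, 719 and 257 normalised counts in FL and 293, 416 and 281 in WT replicates, so that FL replicate 4 was the lowest liver of all and the other 3 FL livers were above every WT liver. The log2 fold change was 0.57 (SE 0.34, limma unadjusted p = 0.131). Glyat, which conjugates acyl-CoA with glycine, ranged from 3304 to 3559 in FL and 2671 to 3669 in WT livers. Nat2, an arylamine acetyltransferase, ranged from 162 to 202 and from 168 to 190. Its neighbour Nat1 held 2 to 11 normalised counts, at the level of a few reads, and was not tested.

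Among the glutathione transferases outside the alpha, mu and pi classes, none had an unadjusted p under 0.05. Mgst1 held 28531, 28804, 21380 and 27526 normalised counts in FL and 28132, 21151 and 28663 in WT replicates. FL replicate 3 and WT replicate 2 were at 75.6% and 74.5% of the other livers of their genotype, and the log2 fold change was 0.035 (SE 0.17). Gstt1, of the theta class, ranged from 2286 to 2516 in FL and 2160 to 2418 in WT livers. Gstz1, which also breaks down tyrosine as maleylacetoacetate isomerase, ranged from 6181 to 7221 and from 6155 to 6869. Gsto1, of the omega class, ranged from 2131 to 2442 and from 2128 to 2679.

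Gstt2, a further theta class gene, had the lowest p of this family. It held 705, 925, 864 and 772 normalised counts in FL and 875, 1209 and 995 in WT replicates, with FL replicate 2 above WT replicate 1. FL livers were at 79.6% of WT, with a log2 fold change of -0.32 (SE 0.15, limma unadjusted p = 0.0598). Gstt3 ranged from 209 to 339 in FL and 260 to 395 in WT livers, and the mitochondrial and peroxisomal Gstk1 from 971 to 1344 and from 1132 to 1543. Mgst3 ranged from 155 to 231 in FL and reached 346 in WT replicate 2, against 168 and 179 in the other WT livers. The family had 3 genes higher and 5 lower in FL, with a median log2 fold change of -0.079 over all livers and -0.024 without the 2 that stood apart.

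Of the epoxide hydrolase genes, Ephx2 had an unadjusted p under 0.05 and Ephx1 did not. Ephx2 (chr14:66084374-66124500, minus strand) encodes the soluble enzyme, which hydrolyses fatty acid epoxides, and Ephx1 the microsomal enzyme, which hydrolyses xenobiotic epoxides. Ephx2 held 12008, 13605, 10272 and 13978 normalised counts in FL and 10910, 7461 and 9718 in WT replicates. Only FL replicate 3 was below a WT liver, replicate 1, and the 2 livers that stood apart were the lowest of their genotype.

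The means of Ephx2 were 12470 ± 1694 (SD, n = 4) and 9363 ± 1752 (SD, n = 3), so FL livers held 133% of the WT level. The log2 fold change was 0.42 (SE 0.17, limma unadjusted p = 0.0407, adjusted p = 0.999), and the exact permutation test gave p = 0.0857. It was 0.35 (SE 0.10, limma adjusted p = 0.315) without the 2 livers. Ephx1 ranged from 5664 to 8319 in FL and 7253 to 9790 in WT, at a log2 fold change of -0.25 (SE 0.17, limma unadjusted p = 0.179) over all livers and -0.029 (SE 0.11) without the 2.

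WT replicate 2 and FL replicate 3 departed from their own genotype in the same direction for 32 of the 38 genes, 84.2%, beside 79.8% of all genes. In WT replicate 2, 5 genes were over 2-fold below the mean log2 value of the other WT livers and 0 were over 2-fold above it, 13.2% and 0.0% of the 38, beside 7.45% and 11.8% of all genes. The 5 were Ugt2b37, Sult2a8, Ugt2b38, Ugt3a1 and Sult5a1. Counting both directions, 19.2% of all genes departed by over 2-fold in that liver. Other UGT and sulfotransferase genes, Ugt1a9, Ugt2b34, Sult1a1 and Sult1c2, were highest in it among WT livers. The phenol sulfotransferase gene Sult1a1, Papss2, Mgst3 and Nnmt were highest in both livers, each within its genotype.

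**Figure D5:**
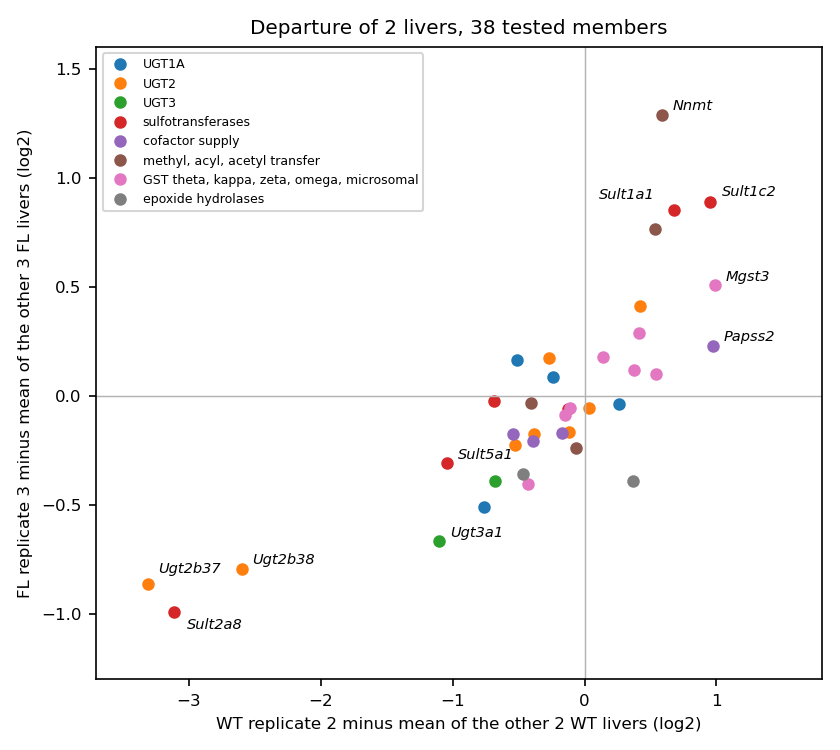
Log2 difference of WT replicate 2 from the mean of the other 2 WT livers (x axis) against that of FL replicate 3 from the mean of the other 3 FL livers (y axis), 1 point for each of 38 conjugation enzyme genes, coloured by family. Of the points, 32 lie in the lower left or upper right part, with Ugt2b37, Sult2a8 and Ugt2b38 farthest to the left and Nnmt highest.

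Other gene groups departed in the same 2 livers, and their part in these values was not tested. The 6 tested pericentral hepatocyte markers were all lowest in WT replicate 2 among WT and in FL replicate 3 among FL livers, and their 7 measured markers summed to 12636 in WT replicate 2 against 62187 and 69763 in the other WT livers and to 21340 in FL replicate 3 against 45271 to 57974. Of the 7 periportal markers, 6 were highest in WT replicate 2 and all 7 in FL replicate 3, and they summed to 63756 to 124309 in FL and 72545 to 119391 in WT livers. Of 9 male-biased liver genes, 8 had their lowest WT value in replicate 2, where the list summed to 12890 against 38805 and 39779 in the other WT livers. Among FL livers 5 were lowest and 3 highest in replicate 3, where the list summed to 27833 against 35091 to 47348. Of the 7 tested markers biased to female liver, 6 were highest in WT replicate 2 among WT and 3 in FL replicate 3 among FL livers. The sum of the measured list was lowest in these livers, at 19672 in WT replicate 2 against 27626 and 39667. It was 20278 in FL replicate 3 against 21636 to 30315 in the other FL livers. Most of the sum was Cyp4a14, at 15581 in WT replicate 2 against 25724 and 37055 in the other WT livers.

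Macrophage, stellate cell and division markers were also high in WT replicate 2, and most of them were highest among FL livers in replicate 3. Among WT livers all 8 macrophage markers were highest there, and they summed to 13705 against 4979 and 5713 in the other WT livers and 5068 to 8314 in FL livers. All 6 stellate cell markers were highest there too, with a sum of 6978 against 2425 to 3219 in the other 6 livers. So were all 8 tested proliferation markers, at 1348 against 95 to 351. Among FL livers replicate 3 was highest for 6 of 8 macrophage, 4 of 6 stellate cell and all 8 tested proliferation markers. The proliferation list summed to 351 there against 95 to 132 in the other FL livers. Of 6 endothelial markers, 5 were highest in WT replicate 2 among WT and 4 in FL replicate 3 among FL livers. They summed to 3334 in WT replicate 2 against 2383 and 2614 in the other WT livers. In FL replicate 3 the endothelial sum was 3035 against 2608 to 2839 in the other FL livers. Neutrophil markers summed to 19 to 67 over all livers, with the highest sum in WT replicate 2. The 5 bile duct markers summed to 603 to 1482, with all 5 lowest in FL replicate 3 among FL livers and 0 highest in WT replicate 2 among WT livers. In FL 4 were lower and Sox9 was higher. At an unadjusted p under 0.05 in limma there were 3, Sox9 among them, beside 3.2% of all genes. The genotypes did not overlap for 3 of the 5, beside 4.76% of all genes. Of these lists, none had a marker with an adjusted p under 0.05 in limma.

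Without WT replicate 2 and FL replicate 3, a comparison added after the data were seen, 11 of the 38 genes were higher and 27 lower in FL, with a median log2 fold change of -0.067, beside 47.0% of all genes higher and a median of -0.013. None of the 38 passed an adjusted p of 0.05 in limma, beside 0.0487% of all genes. An unadjusted p under 0.05 was reached by 5 of 38, beside 9.74% of all genes: Ugt1a9, Ugt2b1, Ugt2b34 and Ugt2b35 were lower and Ephx2 higher. The family medians of the UGT1A, UGT2, UGT3 and sulfotransferase genes changed sign, and those of the last 2, at 0.12 and 0.084, became -0.05 and -0.092.

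A further list of 51 genes of the same pathways, among them other UGTs and sulfotransferases, PAPS transporters, further methyltransferases and the export pumps of conjugates, had 31 genes in the table and 24 tested. None passed an adjusted p of 0.05 in limma, 10 were higher and 14 lower in FL, and 2 had an unadjusted p under 0.05. Abcc2, the canalicular pump that exports glucuronides into bile, held 4444, 4484, 3715 and 4104 normalised counts in FL and 4945, 5509 and 6020 in WT replicates. Baat, which conjugates bile acids with taurine or glycine, held 2814, 2888, 3371 and 3086 in FL and 2258, 2644 and 2407 in WT replicates.

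Neither gene overlapped between the genotypes. The log2 fold changes were -0.39 (SE 0.12, limma unadjusted p = 0.0108) for Abcc2 and 0.32 (SE 0.11, limma unadjusted p = 0.0194) for Baat, both with an adjusted p of 0.999. Beside them, 1.98% of all genes had every FL liver below every WT liver and 2.77% had every FL liver above. At an unadjusted p under 0.05, 1.6% of all genes were lower and 1.59% higher in FL.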

How the data were processed

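Liver RNA of 4 FL and 3 WT mice, grouped by their labels, was compared. Per the labels and the study's methods, the authors prepared stranded polyA libraries, read 36 bases from both ends, aligned with TopHat2 version 2.0.13 and Bowtie2 version 2.2.6.0 and normalised gene counts with DESeq2. The notes name both featureCounts and HTSeq, and a genome written as GRCh38, which is a human assembly name although the samples are mouse. The deposited values are normalised counts that the authors rounded to whole numbers, treated here as a score, so no count test was run. The table held 14988 rows, 120 identifiers on more than 1 row were identical and kept once, and 0 columns were left unused. Depth was estimated from the spacing of low values, and such depths bound counting error only. Symbols and coordinates came from GENCODE vM21 (GRCm38), which named 14839 of 14851 identifiers and none for 12.

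Genotypes were tested in R version 4.3.3 by limma version 3.58.1, with lmFit and a trended eBayes, after adding a pseudocount of 1 and taking log2, a scale that understates the change of low genes. The 12545 genes averaging 10 or more entered, and Benjamini-Hochberg adjustment ran over all of them at a threshold of 0.05. Single genes also had exact two-sided permutation tests over 35 splits, whose smallest p is 0.0286. The fit was tested on simulated data. The genes, families, marker lists and further pathway list were chosen with earlier results of these data known. Per-liver values are given for genes with an adjusted or unadjusted p under 0.05, genes that do not overlap, the highest gene of each family, and genes with a liver over 2-fold from its nearest; other genes with per-liver values were chosen after these were seen. Alternatives were other pseudocounts, filters, scalings and variance models, array weights, a replicate block and leaving out livers. The study's methods say that mice were treated together and, as far as possible, were littermates of like age, but not which mice shared a litter. Promoters came from RefSeq (GRCm38.p6). Tables used pandas version 2.3.3 and NumPy version 2.4.6 under Python version 3.11.15, and figures used Matplotlib version 3.10.9.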

Additional observations from a re-analysis of the deposited data

Results flagged for a closer look

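Among the 39 genes, 4 had 1 FL liver farther from the other 3 FL livers than Dixon's 95% critical value for 4 samples allows, where chance flags about 1 in 20 groups, or 1.95 of 39. All 4 were high in FL replicate 1. Ugt1a9 was at 752 normalised counts in that liver against 679 to 689 in the others, and Ugt2b35 at 993 against 855 to 867. Both genes were still below every WT liver there. Ugt2b37 was at 255 against 74 to 102, and Glyat, the glycine acyltransferase, was at 3559 against 3304 to 3343. Groups of 3, such as the WT livers, are not tested by this ratio.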

How the results depend on the processing

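None of the 38 genes passed an adjusted p of 0.05 under any of 18 alternatives, and between 2 and 8 had an unadjusted p under 0.05 in limma. Ugt1a9 had one under each of them, with a log2 fold change between -0.63 and -0.40 and unadjusted p between 0.000929 and 0.0452. Ugt2b35 lay between -0.39 and -0.26 with an unadjusted p of up to 0.129, and was above 0.05 in 3 alternatives (the replicate block, without FL replicate 2 and without WT replicate 3). Ephx2 lay between 0.27 and 0.54 with an unadjusted p of up to 0.176, and was above 0.05 in 7 (no trend, the block, and without FL replicate 1, 2 or 4 or WT replicate 2 or 3). The log2 fold change of Ephx1 moved from -0.25 to -0.029 without the 2 livers that stood apart.

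The count of all genes called was 2, and became 0 with a pseudocount of 5, a mean of at least 50, no variance trend or the replicate block, 1 with quantile normalisation, 5 with array weights, 0 to 5 when 1 liver was left out (5 without WT replicate 3, 1 without FL replicate 3 and 0 without any other) and 6 without the 2 livers that stood apart. Those with 0 calls held 404, 316, 465 and 113 genes at an unadjusted p under 0.05, and 248 to 739 without 1 liver. Both genotypes carry replicate numbers in the labels, and no source calls them pairs. Deviations of same-numbered livers from their genotype mean correlated at 0.438, -0.483 and -0.661 for replicates 1 to 3. WT replicate 2 and FL replicate 3 weigh on these deviations, so the correlations cannot tell whether same-numbered livers are paired. The block, with FL replicate 4 left out, is given as an alternative only.

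The direction of 17 genes held under every alternative and that of 21 turned in at least 1. With quantile normalisation Ugt2b5 turned to -0.0083, Glyat to -0.011, Gstt1 to -0.0014, Gstz1 to -0.064 and Mgst1 to -0.17. With the trimmed mean of M-values Ugt1a1 turned to 0.015, Ugt2b36 to 0.015 and Gsto1 to 0.0013. With array weights Ugt1a6a turned to -0.062, Ugt2b5 to -0.065, Ugt2b37 to -1.17, Ugt2b38 to -0.24, Ugt3a1 to -0.14, Sult1b1 to -0.19, Sult2a8 to -0.079, Glyat to -0.035 and Mgst1 to -0.024. With the replicate block Ugt2b36 turned to 0.0013 and Sult1b1 to -0.0021. Without the 2 livers that stood apart, chosen after seeing the data, Ugt1a6a turned to -0.056, Ugt2b5 to -0.042, Ugt2b37 to -0.81, Ugt2b38 to -0.26, Ugt3a1 to -0.12, Sult1b1 to -0.16, Sult2a8 to -0.088, Glyat to -0.059 and Mgst1 to -0.0058. The cause was not tested.

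Leaving out 1 liver at a time gave the log2 ranges -0.26 to 0.14 (Ugt1a1), -0.034 to 0.15 (Ugt1a6a), -0.085 to 0.13 (Ugt2b5), -0.044 to 0.037 (Ugt2b36), -1.02 to 1.25 (Ugt2b37), -0.46 to 0.94 (Ugt2b38), -0.29 to 0.31 (Ugt3a1), -0.079 to 0.29 (Ugt3a2), -0.11 to 0.33 (Sult1a1), -0.16 to 0.22 (Sult1b1), -0.42 to 0.13 (Sult1c2), -0.34 to 1.22 (Sult2a8), -0.36 to 0.029 (Ugp2), -0.16 to 0.36 (Nnmt), -0.068 to 0.16 (Glyat), -0.28 to 0.022 (Gstt3), -0.014 to 0.077 (Gstz1), -0.083 to 0.083 (Gsto1), -0.11 to 0.14 (Mgst1) and -0.49 to 0.031 (Mgst3).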
